A study of Mus musculus with 19 samples.

Results

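The light phase of the mouse day was examined by comparing ribosome-bound mRNA of spinal cord cholinergic neurons at Zeitgeber Time (ZT) 8 with that at ZT0. ZT counts hours after lights on, so ZT0 is the dark-to-light transition and ZT8 falls in the later part of the light phase, when this nocturnal animal rests. The comparison took the 3 immunoprecipitates labelled ZT8 and the 3 labelled ZT0, which made 6 of the 19 libraries in the series. The other libraries were 12 immunoprecipitates at ZT4, ZT12, ZT16 and ZT20 and 1 pooled input. All animals were 10-wk-old male C57BL/6J mice, labelled WT, carrying ChAT-Cre and 1 RiboTag fx allele, kept under 12 h of light and 12 h of darkness, and each immunoprecipitate came from the spinal cord of 1 mouse. RiboTag adds a hemagglutinin tag to a ribosomal protein in Cre-expressing cells, and precipitating the tag recovers the mRNA bound to their ribosomes. ChAT-Cre is active in all cholinergic cells of the cord, so motor neurons, visceral motor neurons and cholinergic interneurons were sampled together.

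The circadian clock is a feedback loop of transcription factors. BMAL1 (encoded by Arntl) and CLOCK activate genes through E-box elements, the PER and CRY proteins repress BMAL1 and CLOCK, and REV-ERB and ROR receptors set the level of Arntl itself. Output factors such as DBP, TEF and HLF pass the rhythm on to other genes. Many genes of metabolism and protein synthesis vary over the day in peripheral tissues and in brain, and mRNA on ribosomes reflects both the amount of an mRNA and how much of it is being translated.

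The 6 libraries held between 11020292 and 20856622 expected counts. ZT8 was the less uniform group. On the first principal component of log2 CPM (counts scaled to library size) over the 18 immunoprecipitates, which held 52.8% of the variance, the ZT0 libraries lay at -22.3, -8.29 and -18.8 and the ZT8 libraries at 5.03, 42.6 and 29.7. ZT8 replicate 2 was the outermost of the 18, and ZT8 replicate 1 lay within the range of the ZT4 libraries (4.32, 19.9 and 15.1). The sum of the 7 cholinergic markers ranged from 4295 to 4768 CPM at ZT0 and from 4230 to 4685 CPM at ZT8, although 4 of the 7 were called lower and the median log2 change of the 7 was -0.64. The 7 oligodendrocyte markers summed to 1827 to 2207 CPM at ZT0 and 1744 to 2002 CPM at ZT8. Astrocyte markers summed to 165 to 185 CPM at ZT0 against 131 to 165 CPM at ZT8, with 0 of 6 called. Inhibitory neuron markers summed to 321 to 338 CPM against 246 to 299 CPM, with 2 of 4 called lower. Meningeal fibroblast markers summed to 19.03 to 19.6 CPM against 11.5 to 18.98 CPM, with 0 of 4 called. All 3 sums were lower in every ZT8 library than in any ZT0 library. No marker of the 11 cell types was at 0 throughout the 6 libraries. The part of these differences between cell types in the results was not tested. A lower value in such a sample cannot tell fewer tagged cells from less RNA per cell.

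Of 15572 genes tested, 2798 (18%) passed an adjusted p of 0.05 between ZT8 and ZT0 in the quasi-likelihood test of edgeR, 1393 (8.95%) higher and 1405 (9.02%) lower at ZT8. The median size of a called change was 0.64 on the log2 scale, and 163 genes rose and 318 fell by 2-fold or more. The 3 ZT8 values lay above or below all 3 ZT0 values in 2625 of the called genes. Over all genes tested, the groups were separated in this way in 2639 genes (16.9%) with ZT8 above and 2764 (17.7%) with ZT8 below. The called changes were smallest in ZT8 replicate 1, where the median distance from the ZT0 mean was 0.36 for genes called higher and -0.39 for genes called lower, and largest in replicate 2, at 0.78 and -0.95. Replicate 3 lay between, at 0.62 and -0.76. The number called accordingly rested on single libraries. Without ZT8 replicate 2 it was 274, and without ZT8 replicate 3 it was 1114. Without ZT0 replicate 1 it was 639 and without ZT0 replicate 3 it was 1128, whereas 4010 genes passed without ZT8 replicate 1. The 274 were 86 genes called higher and 188 called lower of 15972 tested without ZT8 replicate 2. Counts of a list in that setting stand beside these smaller numbers over all genes. All 2798 genes kept their direction without ZT8 replicate 2, and groups that mostly do not overlap leave little room for a reversal. The median log2 change was then 0.48 for the genes called higher with all libraries and -0.59 for those called lower.

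Among 20 genes of the core clock and its outputs, 4 rose (Tef, Bhlhe41, Nr1d2 and Dbp), 1 fell (Arntl) and 15 did not pass the test. The share called was 20% higher and 5% lower, beside 8.95% and 9.02% of all genes tested, so the number called in the list was not far from the background. The median log2 change of the list was 0.09, beside -0.003 for all genes tested. None of the 5 calls remained without ZT8 replicate 2, with log2 changes of 0.36 to 0.57 for the genes that rose and -0.69 for Arntl. Without ZT0 replicate 1, only 1 remained (Bhlhe41, adjusted p = 0.0446). Stretches of promoter are shown for 5 of the members whose 250 bases upstream of a RefSeq start site (GRCm38.p6) held an element of the clock. They are the 3 of these that rose and, chosen after values were seen, Ciart and Per3, which held more than 1 copy. The stretches are shown with the element in capitals and each sequence written 5′ to 3′ on the strand of the gene. The elements searched, on both strands, were the E-box CACGTG, the D-box TTANGTAA bound by DBP, TEF and HLF, and AGGTCA, the core of the element bound by REV-ERB and ROR receptors. None of the 3 contains another. Tef has 2 start sites with an E-box, and Ciart, a repressor that did not pass the test, has 3 E-boxes in 1 promoter.
Tef, chr15:81802522-81802575, plus strand: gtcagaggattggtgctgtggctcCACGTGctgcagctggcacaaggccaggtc
Tef, chr15:81811252-81811305, plus strand: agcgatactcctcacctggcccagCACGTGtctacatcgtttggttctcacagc
Bhlhe41, chr6:145865544-145865597, minus strand: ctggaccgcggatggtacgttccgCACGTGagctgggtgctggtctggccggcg
Ciart, chr3:95882243-95882368, minus strand: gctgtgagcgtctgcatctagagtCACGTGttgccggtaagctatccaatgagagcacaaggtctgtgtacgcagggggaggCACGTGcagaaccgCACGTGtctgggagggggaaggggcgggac
Nr1d2, chr14:18239154-18239207, minus strand: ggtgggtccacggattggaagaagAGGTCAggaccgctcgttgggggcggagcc
Per3, chr4:151044792-151044894, minus strand: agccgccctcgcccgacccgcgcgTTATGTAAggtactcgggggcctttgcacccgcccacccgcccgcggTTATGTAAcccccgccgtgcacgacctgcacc

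An E-box was present in 5 of the 17 clock genes with a promoter in the RefSeq table (Tef, Bhlhe41, Ciart, Per1 and Cry1), compared with 9.63% of the 11803 tested genes that had one and 6.86% of all 27025 genes with a promoter. The share was 11.1% among genes called higher and 11.1% among genes called lower. The D-box was present in Per3 and Rorb and in 1.63% of tested genes, and AGGTCA in 4 clock genes (Clock, Per1, Nr1d2 and Nfil3) and in 13% of tested genes. Dbp and Arntl held none of the 3 letter strings in this window.

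Tef, a PAR bZIP output factor (chr15:81802673-81826863), stood at 98.4, 101 and 104 CPM in the ZT0 libraries and at 124, 159 and 139 CPM at ZT8. Its log2 change was 0.48 ± 0.11 (SE, adjusted p = 0.00897). Dbp, the related factor (chr7:45705100-45710203), gave 8.9, 10.3 and 11.7 CPM at ZT0 and 15.7, 16 and 15.2 CPM at ZT8, a change of 0.60 ± 0.17 (adjusted p = 0.0231). Both genes were higher in every ZT8 library than in any ZT0 library, and Dbp varied little among the ZT8 animals (15.6 ± 0.42, SD, n = 3). Dbp was nevertheless not called without ZT0 replicate 1, ZT8 replicate 2 or ZT8 replicate 3 (adjusted p = 0.123, 0.0955 and 0.0604). Hlf, the third member of that family, was at 9.43 ± 0.86 CPM at ZT0 and 12.8 ± 1.67 CPM at ZT8, a difference of 0.44 ± 0.20 that missed the threshold (adjusted p = 0.14), although its groups did not overlap.

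Bhlhe41, which encodes the E-box repressor DEC2 (chr6:145858243-145865420), gave 91.2, 88.6 and 86 CPM at ZT0 and 108, 171 and 121 CPM at ZT8, with the highest value in ZT8 replicate 2. Its log2 change was 0.59 ± 0.14 (adjusted p = 0.00912). Its paralog Bhlhe40 stayed within the spread of the groups, at 51.3 ± 2.28 CPM at ZT0 and 53.3 ± 2.03 CPM at ZT8. Nr1d2, which encodes REV-ERB beta (chr14:18204056-18239106), gave 45.5, 58.6 and 58.9 CPM at ZT0 and 76.9, 91.5 and 74.9 CPM at ZT8 (0.58 ± 0.15, adjusted p = 0.0119). Nr1d1, which encodes REV-ERB alpha, gave 36.1, 31.8 and 32.9 CPM at ZT0 and 43.3, 24.8 and 31.5 CPM at ZT8, so that the ZT8 libraries lay on both sides of the ZT0 range.

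Arntl (chr7:113178471-113314126) fell from 8.41, 9.24 and 9.88 CPM at ZT0 to 4.83, 5.29 and 6.63 CPM at ZT8, a log2 change of -0.72 ± 0.20 (adjusted p = 0.0177), with no overlap between the groups. Its partner Clock gave 24.9 ± 3.3 CPM at ZT0 and 28.1 ± 4.43 CPM at ZT8. The period and cryptochrome repressors did not pass the test. Per2 was at 5.09, 3.81 and 5.36 CPM at ZT0 and at 3, 3.07 and 3.07 CPM at ZT8 (-0.65 ± 0.31, adjusted p = 0.153), and Cry1 gave -0.71 ± 0.34 (adjusted p = 0.159). Per3 gave 0.49 ± 0.30 (adjusted p = 0.286), Per1 0.10 ± 0.16 and Cry2 0.08 ± 0.09. Of 8 genes for kinases and turnover of clock proteins, none fell and 2 rose (25%, beside 8.95% of all genes tested). These were Csnk1d, encoding casein kinase 1 delta (282 ± 12 to 385 ± 28.3 CPM), and Fbxw11, encoding a ubiquitin ligase adaptor (253 ± 13.2 to 307 ± 27.1 CPM). Neither was called without ZT8 replicate 2 (adjusted p = 0.0562 and 0.203), and Fbxw11 was also lost without ZT0 replicate 1 and without ZT8 replicate 3.

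**Figure D1:**
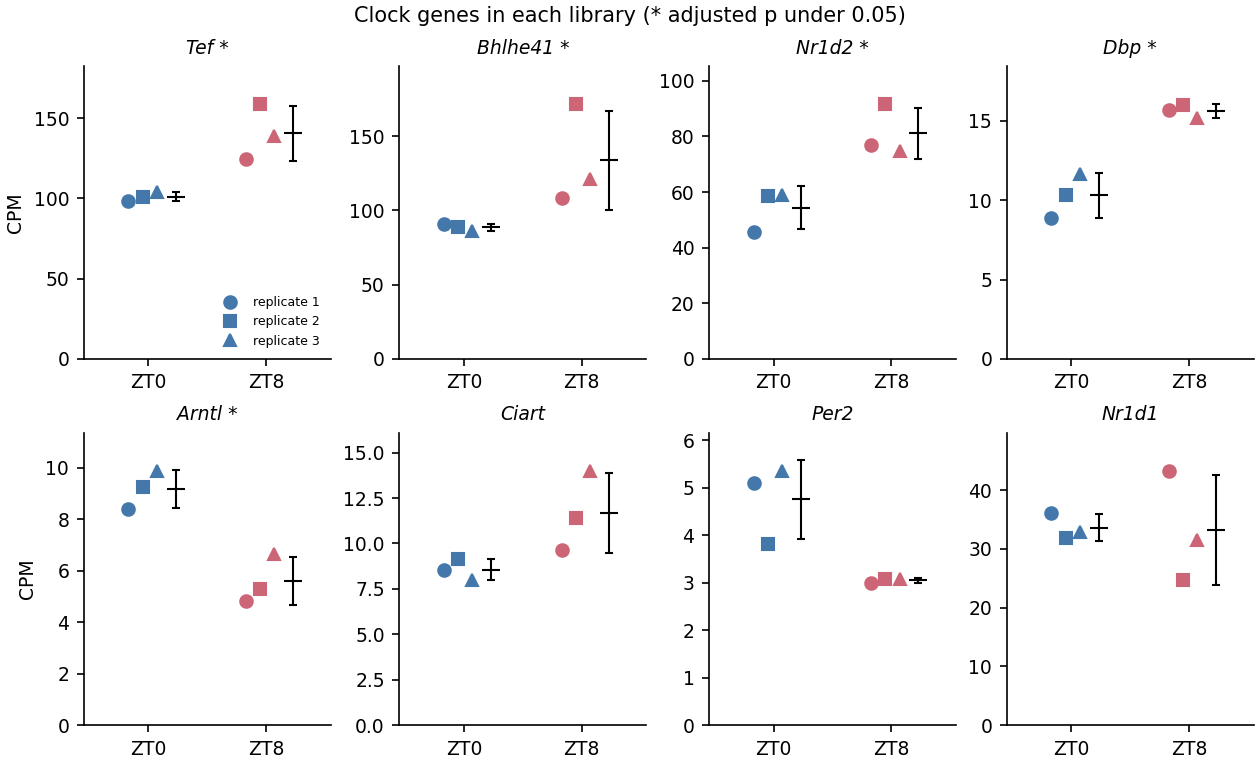
CPM of 8 clock genes in each library of ZT0 (blue) and ZT8 (red), with the replicate number as the symbol and the mean ± SD of 3 libraries beside the points. The axes start at 0, and an asterisk marks an adjusted p under 0.05. Tef, Bhlhe41, Nr1d2 and Dbp lie higher at ZT8 and Arntl lower, Ciart and Per2 are apart without passing the test, and the ZT8 values of Nr1d1 span 24.8 to 43.3 CPM.

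Genes of cytosolic ribosomal proteins formed the list with the highest share of calls in 1 direction. Of 79 tested, 46 rose (58.2%), 1 fell (1.27%) and 32 did not pass, beside 8.95% and 9.02% called of all genes tested. The median log2 change was 0.58. The small subunit contributed 24 increases and no decrease among 31 genes, and the large subunit 21 increases and 1 decrease among 46 genes. Rplp2, encoding an acidic protein of the ribosomal stalk (chr7:141447651-141451359), gave 144, 176 and 127 CPM at ZT0 and 272, 490 and 389 CPM at ZT8. Its log2 change of 1.36 ± 0.28 (adjusted p = 0.0062) was the fifth largest increase among genes of at least 10 CPM that did not overlap. Rps27a, which also encodes ubiquitin, rose 2.14-fold, Rps13 1.97-fold, Rpl34 1.91-fold and Rps3a1 1.86-fold. The lone decrease was Rpl3 (-0.24), which was chosen after its values were seen. Ribosomal protein genes have processed pseudogenes of near-identical sequence, so how their reads were divided is uncertain. With ZT8 replicate 2 left out, 86 of all 15972 genes tested were called higher, and 1 member of the list was among them (Rplp2, adjusted p = 0.0498). The list median was then 0.43. Without ZT0 replicate 1, 4 members were among the 267 genes called higher.

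Mitochondrial ribosomal protein genes were split, with 25 of 78 called higher (32.1%), 6 lower (7.69%) and a median of 0.27. All genes tested gave 8.95% higher and 9.02% lower. Mrpl11 rose from 55.5 ± 4.48 to 107 ± 25 CPM, Mrpl20 from 81.7 ± 7.68 to 151 ± 34.7 CPM and Mrps25 from 83.8 ± 8.59 to 158 ± 41 CPM. Mrpl3 moved the other way, from 27.8, 30.4 and 32.2 CPM at ZT0 to 16.6, 12.8 and 14.1 CPM at ZT8 (-1.06 ± 0.21, adjusted p = 0.0061). When ZT8 replicate 2 was left out, Mrpl11 was called higher and Mrpl3 lower.

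Nuclear genes of oxidative phosphorylation, the chain of complexes that makes ATP in mitochondria, moved in both directions within the same complexes. Of 80 tested, 41 rose (51.25%), 11 fell (13.75%) and 28 did not pass, with a median log2 change of 0.49. All genes tested gave 8.95% higher and 9.02% lower. Complex I held 23 increases and 3 decreases among 38 genes, complex III 3 and 3 among 9, complex IV 7 and 0 among 11, and ATP synthase 8 and 4 among 17. Cox5a, a subunit of complex IV (chr9:57517328-57532427), gave 486, 599 and 492 CPM at ZT0 and 741, 1432 and 1095 CPM at ZT8 (1.05 ± 0.22, adjusted p = 0.00709). Ndufb7, a complex I subunit, rose from 235 ± 43 to 465 ± 124 CPM. In contrast, Atp5b, the catalytic beta subunit of ATP synthase (chr10:128083307-128090388), fell from 1754, 1546 and 1639 CPM to 1226, 613 and 733 CPM (-0.94 ± 0.19, adjusted p = 0.0062). Atp5c1, the gamma subunit, fell from 318 ± 8.35 to 214 ± 34.9 CPM, and Ndufb2 of complex I fell from 66.8, 65.7 and 66 CPM to 47.4, 31.8 and 30.7 CPM. The other decreases, named after their values were seen, were in Atp5a1 and Atp5g1 of ATP synthase, Ndufa10 and Ndufv1 of complex I, Uqcrc1, Uqcrc2 and Cyc1 of complex III, and Sdhb of complex II. Omitting ZT8 replicate 2 left no member called higher and 3 called lower (Atp5b, Atp5c1 and Ndufb2, adjusted p from 0.0395 to 0.0484). Cox5a then gave 0.79 and Ndufb7 0.81 (adjusted p = 0.0617 each).

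Of the 13 protein-coding genes of the mitochondrial genome, 6 fell (46.2%, beside 9.02% of all genes tested), none rose and 7 did not pass. Their median log2 change was -0.66. ND4, a complex I subunit, gave 428, 329 and 448 CPM at ZT0 and 230, 85 and 164 CPM at ZT8 (-1.33 ± 0.25, adjusted p = 0.00523). ND2 gave 276, 218 and 316 CPM at ZT0 and 153, 48.9 and 89.4 CPM at ZT8, and ND5 54.3, 35.7 and 62.7 against 25.5, 11.7 and 21.9 CPM. In each of these genes the ZT8 libraries were all below those of ZT0, and ZT8 replicate 2 was the lowest. CYTB of complex III fell to 0.424-fold and ATP6 of ATP synthase to 0.509-fold. These mRNAs are translated by mitochondrial ribosomes, which do not carry the tag. The 13 genes together took 0.401%, 0.335% and 0.467% of the counts at ZT0 and 0.289%, 0.161% and 0.307% at ZT8, and the part of such untagged RNA in the result was not tested. Of the 6 genes that fell, 4 were still called without ZT8 replicate 2 (ND2, ND4, ND5 and CYTB). In that setting 188 of all 15972 genes tested were called lower.

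**Figure D2:**
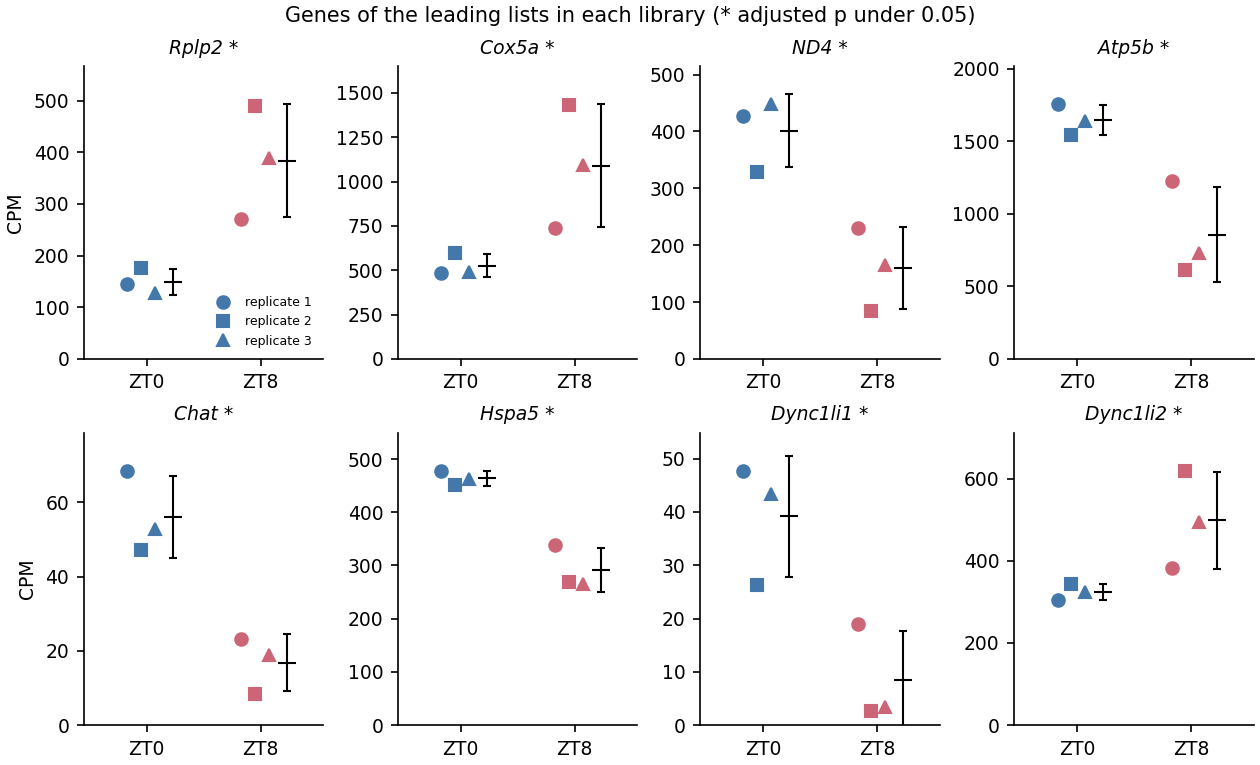
CPM of 8 genes in each library of ZT0 (blue) and ZT8 (red), with the replicate number as the symbol and the mean ± SD of 3 libraries beside the points, on axes that start at 0. Rplp2, Cox5a and Dync1li2 are higher at ZT8 and ND4, Atp5b, Chat, Hspa5 and Dync1li1 lower, and in each gene ZT8 replicate 1 is the ZT8 library nearest to the ZT0 values. The lower SD bar of Dync1li1 at ZT8 is cut at 0.

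Translation initiation and elongation factors were called in equal numbers, 11 higher and 11 lower of 54 (20.4% each), with a median of -0.04. All genes tested gave 8.95% higher and 9.02% lower. The paralogs of the eIF4A helicase, which unwinds mRNA for the ribosome, moved apart. Eif4a1 gave 129.8, 123.04 and 124.9 CPM at ZT0 and 89.2, 60.1 and 65.7 CPM at ZT8 (-0.81 ± 0.16, adjusted p = 0.00593), whereas Eif4a2 gave 709, 844 and 748 CPM at ZT0 and 943, 1479 and 1088 CPM at ZT8 (0.61 ± 0.13, adjusted p = 0.00746). Eef1b2, an elongation factor, rose 1.82-fold and Eif2s3x, encoding the gamma subunit of eIF2, 1.51-fold. Eif3f fell to 0.598-fold. Leaving out ZT8 replicate 2 left no factor called higher and 4 lower, Eif3f and Eif4a1 among them.

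Splicing factor genes were called higher in 22 (28.6%) and lower in 6 (7.79%) of 77, with a median of 0.13. All genes tested gave 8.95% higher and 9.02% lower. Genes for 2 proteins of small nuclear ribonucleoproteins were among the increases. Snrpf rose from 23.2 ± 2.73 to 52.8 ± 17.9 CPM and Snrpc from 63.4 ± 11.4 to 127 ± 31 CPM. Prpf19, a ubiquitin ligase of the spliceosome, fell from 503, 411 and 441 CPM to 320, 202 and 214 CPM, and Snrnp200, its RNA helicase, fell from 49.7, 45.7 and 48.8 CPM to 33, 24.3 and 21.7 CPM. Proteasome genes were called higher in 13 (28.3%) and lower in 6 (13%) of 46, with a median of 0.09. Psmd14, the deubiquitinase of the proteasome lid, fell to 0.505-fold and the ATPase Psmc2 to 0.676-fold, whereas Psmb10 rose 1.74-fold and Psmd13 1.5-fold. Without ZT8 replicate 2, no member of either list was called higher, and Prpf19, Snrnp200, Psmd14 and Psmc2 were still called lower.

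Genes of acetylcholine synthesis and motor neuron identity were called lower in 9 of 22 (40.9%) and higher in 1 (4.55%), with a median log2 change of -0.24. All genes tested gave 9.02% lower and 8.95% higher. The enzyme and both transporters of the transmitter fell. Chat, which encodes choline acetyltransferase (chr14:32408203-32465909), gave 68.5, 47.2 and 52.7 CPM at ZT0 and 23.3, 8.31 and 19 CPM at ZT8, a log2 change of -1.74 ± 0.43 (adjusted p = 0.0115). Slc18a3, the vesicular acetylcholine transporter, gave 812, 636 and 639 CPM at ZT0 and 537, 244 and 319 CPM at ZT8 (-0.92 ± 0.23, adjusted p = 0.0113). Slc18a3 lies within the span of the Chat gene (chr14:32462437-32464850), and how reads were divided between them was not tested. Slc5a7, the choline transporter that supplies the enzyme, fell from 306 ± 34 to 196 ± 27.8 CPM. The groups of all 3 genes were separate, and ZT8 replicate 1 was the highest ZT8 library in each.

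Mmp9, a protease that marks fast motor neurons, fell from 82, 59.7 and 69.9 CPM to 47.7, 34.4 and 33 CPM, and Esrrg, a nuclear receptor of gamma motor neurons, from 52.1, 40.3 and 56.4 CPM to 32.5, 19.5 and 19.1 CPM. The 1 gene of the list that rose was Chodl (0.30), a marker of fast motor neurons. Among transcription factors of motor neurons, Isl1 (-0.39), Mnx1 (0.10) and Lhx3 (-0.05) did not pass the test, and others of the list are not given. These 4 genes were chosen after their values were seen. The Cre of these mice is expressed from Chat, and the mice of both groups carry that allele. Only Mmp9 was called lower without ZT8 replicate 2, and Chat (-1.42, adjusted p = 0.0783), Slc18a3 and Slc5a7 were not called. Chat, Slc18a3 and Slc5a7 were also not called without ZT0 replicate 1, nor were Slc18a3 and Slc5a7 without ZT8 replicate 3. No gene of the 7 tested acetylcholine receptors was called at an adjusted p of 0.05. Chrm2, the M2 muscarinic receptor, came closest among those above 10 CPM, at 62.3, 71.8 and 87.8 CPM at ZT0 and 60, 49.2 and 48 CPM at ZT8 (-0.50 ± 0.18, adjusted p = 0.0573).

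Voltage-gated channels set the firing of these neurons. Of 71 potassium channel subunit genes, 13 fell (18.3%) and 5 rose (7.04%), with a median of -0.25. Over all genes tested 9.02% fell and 8.95% rose, so the share that rose was below the background. Kcnc4, a voltage-gated potassium channel subunit, gave 69.7, 70.1 and 70.4 CPM at ZT0 and 38.5, 20.6 and 27.8 CPM at ZT8 (-1.28 ± 0.25, adjusted p = 0.00585). Kcnip1, a partner of A-type channels, fell to 0.482-fold, and the two-pore channel genes Kcnk12 and Kcnk1 fell to 0.638-fold and 0.509-fold. Kcna2, an axonal delayed rectifier, rose from 779, 913 and 881 CPM to 1081, 1496 and 1305 CPM. Of 36 sodium and calcium channel genes, 9 fell (25%) and 2 rose (5.56%, also below the share of all genes tested). Cacng2 and Cacng8, of the gamma subunit family that also serves AMPA receptors, fell to 0.521-fold and 0.564-fold, whereas Scn8a, the sodium channel of the axon initial segment, rose from 832 ± 6.58 to 1068 ± 62.9 CPM and Cacna1g, a T-type calcium channel, from 122.8 ± 5.87 to 157 ± 4.3 CPM. Without ZT8 replicate 2, 3 potassium channel genes (Kcnip1, Kcnc4 and Kcnk12) and no sodium or calcium channel gene were called.

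Of 25 glutamate receptor genes, 1 rose and 1 fell (4% each, below the share of all genes tested). Grin1, the obligatory NMDA receptor subunit, fell from 544, 450 and 462 CPM to 386, 220 and 298 CPM (-0.69 ± 0.16, adjusted p = 0.00971). Of 19 GABA and glycine receptor genes, 1 fell and 1 rose (5.26% each), and the latter, Gabra2, rose 1.37-fold with groups that overlapped. Synaptic vesicle and exocytosis genes were called lower in 11 (22.4%) and higher in 4 (8.16%, below the share of all genes tested) of 49, with a median of -0.03. The genes that rose were Syp, Syt2, Rab3c and Pclo (0.23 to 0.42, named after their values were seen). The vesicle proteins Sv2a (156 ± 17.3 to 89 ± 33.8 CPM), Syngr1 (311 ± 36.6 to 187 ± 57.9 CPM), Syngr3 (239 ± 14.7 to 158 ± 43.5 CPM) and Syn1 (386 ± 20.5 to 276 ± 41.9 CPM) were among those that fell. Unc13b, which primes vesicles for release, fell from 6.32, 7.07 and 7.3 CPM to 3, 2.16 and 2.58 CPM. No member of these 3 lists was called without ZT8 replicate 2.

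Among 60 genes of kinesin, dynein and dynactin motors, which carry cargo along axonal microtubules, 8 rose and 6 fell. These shares, 13.3% and 10%, were near the 8.95% and 9.02% of all genes tested. The light intermediate chains of dynein moved in opposite directions. Dync1li1 (chr9:114688831-114723788) gave 47.7, 26.4 and 43.4 CPM at ZT0 and 19.1, 2.7 and 3.44 CPM at ZT8, a change of -2.25 ± 0.60 (adjusted p = 0.0152), whereas Dync1li2 (chr8:104417674-104443050) gave 305, 342 and 324 CPM at ZT0 and 382, 619 and 493 CPM at ZT8 (0.62 ± 0.13, adjusted p = 0.00735). Dync1li1 was not called when any 1 of ZT0 replicates 1 and 3 or ZT8 replicates 2 and 3 was left out. Of the kinesin-1 genes, Kif5c rose 1.42-fold and Klc1 1.36-fold, and Dynll2, a dynein light chain, rose 1.49-fold.

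Neurofilament, tubulin and microtubule protein genes were called lower in 9 (30%) and higher in 5 (16.7%) of 30, with a median of -0.18. All genes tested gave 9.02% lower and 8.95% higher. Tubb5 and Tubb4a, beta-tubulins, fell to 0.668-fold and 0.626-fold, Map6, a microtubule stabilizer, to 0.609-fold, and Tubg1, a gamma-tubulin, to 0.635-fold. Stmn3, a tubulin-binding stathmin (chr2:181306459-181314500), rose from 2707, 3312 and 2509.6 CPM to 4310.2, 7003 and 6124 CPM (1.03 ± 0.21, adjusted p = 0.00593). Without ZT8 replicate 2, Dynll2 was the 1 motor gene and Stmn3 the 1 gene of this second list still called.

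Genes linked to amyotrophic lateral sclerosis (ALS), a disease of motor neurons, were called higher in 5 (15.6%) and lower in 7 (21.9%) of 32. All genes tested gave 8.95% and 9.02%, and the list median was -0.06. Taf15 and Hnrnpa2b1, which encode RNA-binding proteins, were among those that rose. Taf15 rose from 52.9 ± 2.9 to 93.1 ± 19.6 CPM, and Hnrnpa2b1 from 274 ± 24.1 to 401 ± 52.4 CPM. Vapb, an endoplasmic reticulum membrane protein, rose 1.3-fold. Sqstm1, the autophagy receptor p62, fell from 1167, 999 and 1009 CPM to 731, 617 and 625 CPM (-0.69 ± 0.12, adjusted p = 0.00519). Without ZT8 replicate 2, 1 gene of the list was called higher and 1 lower, the latter Sqstm1 (adjusted p = 0.0395). Sqstm1 was also called without ZT0 replicate 1 (adjusted p = 0.0314) and without ZT8 replicate 3 (adjusted p = 0.0321).

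**Figure D3:**
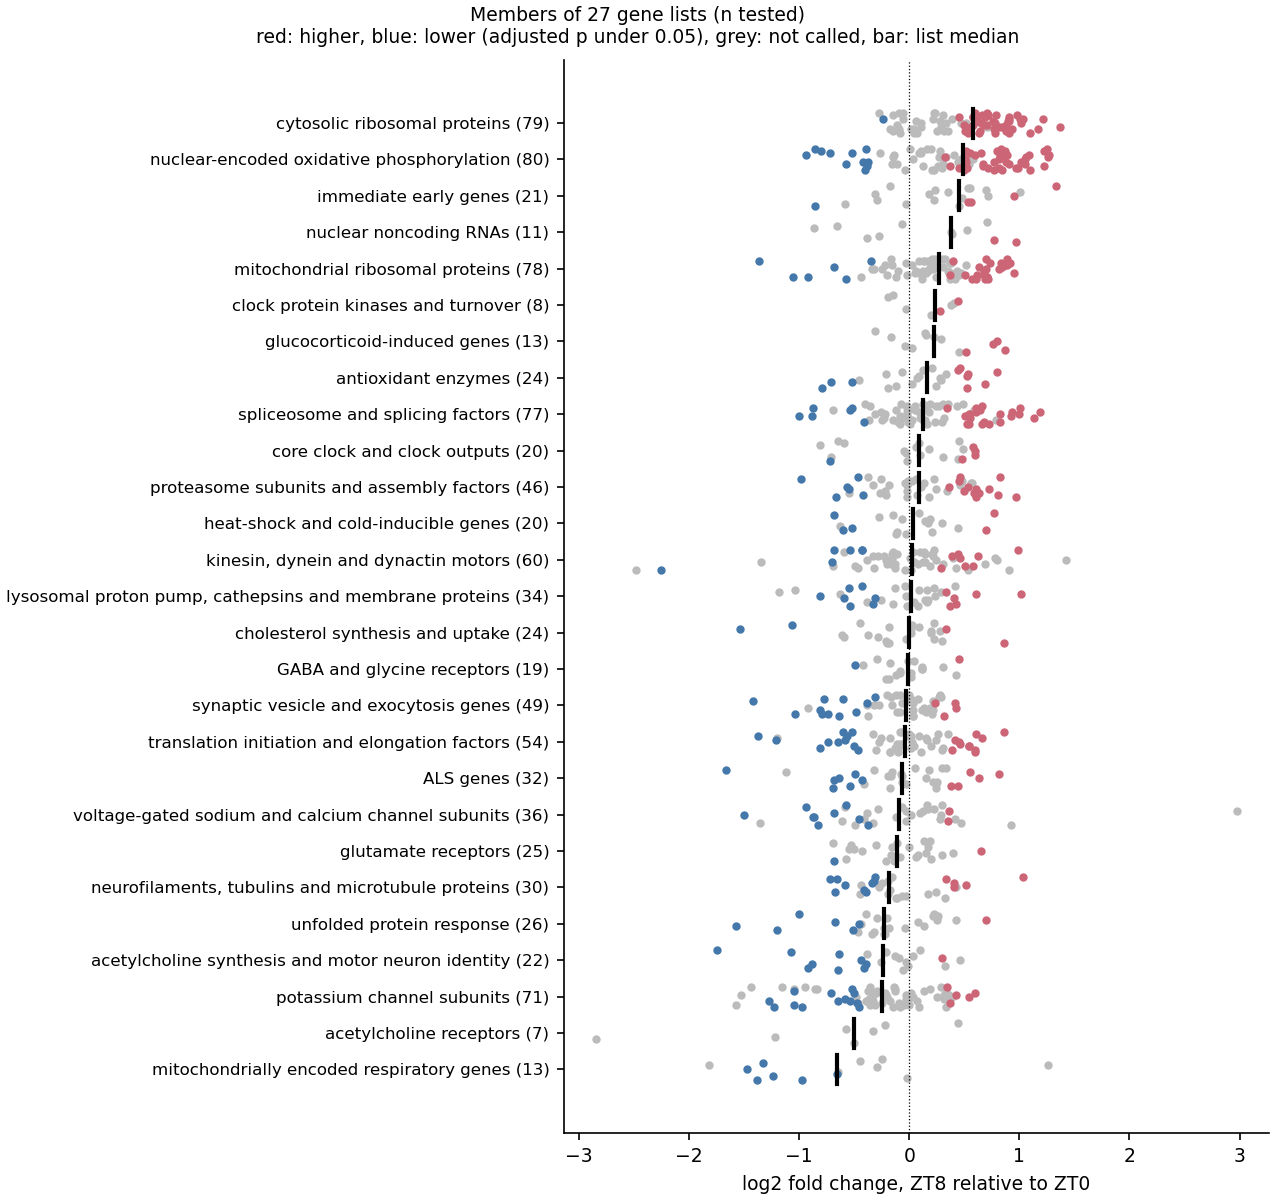
Log2 fold change of ZT8 relative to ZT0 for each tested member of 27 gene lists (number tested in brackets), ordered by list median (black bar). Red and blue points passed an adjusted p of 0.05, higher and lower, and grey points did not. Medians range from -0.66 for the mitochondrially encoded genes to 0.58 for cytosolic ribosomal proteins, and most lists hold calls in both directions.

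Genes of the unfolded protein response, which is set off by misfolded proteins in the endoplasmic reticulum, had a median of -0.23. They were called lower in 6 of 26 (23.1%) and higher in 1 (3.85%), beside 9.02% and 8.95% of all genes tested. The chaperone Hspa5 (BiP, chr2:34772090-34776529) gave 478, 450 and 462 CPM at ZT0 and 338, 269 and 266 CPM at ZT8 (-0.67 ± 0.13, adjusted p = 0.00585). Calr, encoding calreticulin, fell from 283 ± 14.7 to 141 ± 40.8 CPM, and Sdf2l1, a partner of BiP, fell from 16.8, 15.9 and 15.7 CPM to 6.81, 4.69 and 4.79 CPM. Chac1, a glutathione-degrading enzyme induced by this response, fell to 0.436-fold. Atf4, its transcription factor, moved the other way, from 181, 239 and 169 CPM to 278, 349 and 327 CPM (0.70 ± 0.17, adjusted p = 0.00961). Without ZT8 replicate 2, Hspa5, Calr, Sdf2l1 and Chac1 were still called lower, among 188 of all 15972 genes tested.

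Heat-shock and cold-inducible genes were called higher in 2 (10%) and lower in 3 (15%) of 20, beside 8.95% and 9.02% of all genes tested. Cirbp, the cold-inducible RNA-binding protein (chr10:80165990-80172786), rose from 63.4, 65.1 and 58.3 CPM to 92.6, 122 and 103 CPM (0.77 ± 0.17, adjusted p = 0.00739), and Hspe1, a mitochondrial co-chaperone, from 89.6 ± 9.01 to 145 ± 36.4 CPM. The constitutive chaperone Hspa8 fell from 5666, 5003 and 5447 CPM to 4167, 3575 and 3489 CPM, the co-chaperone Dnajb1 from 67.9 ± 2.14 to 44.8 ± 10.2 CPM, and Hsf1, the heat-shock transcription factor, from 31.4 ± 2.77 to 19.6 ± 6.51 CPM. Of these, Hspa8 alone was called without ZT8 replicate 2.

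Of 13 genes that glucocorticoids induce, with a median of 0.22, 4 rose (30.8%, beside 8.95% of all genes tested) and none fell. Tsc22d3, which encodes GILZ, rose from 364, 449 and 366 CPM to 502, 639 and 542 CPM (0.51 ± 0.12, adjusted p = 0.0086). The metallothioneins Mt1 and Mt2 rose 1.74-fold and 1.83-fold and the kinase Sgk1 1.7-fold, with adjusted p of 0.0373, 0.0491 and 0.0416. Of 21 immediate early genes, which neuronal activity induces, 4 rose (19%) and 1 fell (4.76%), with a median of 0.45. Btg2, an antiproliferative factor (chr1:134074865-134079155), gave 5.15, 4.17 and 3.19 CPM at ZT0 and 10.7, 12.5 and 8.29 CPM at ZT8 (1.34 ± 0.25, adjusted p = 0.00523). Egr1 rose 1.47-fold, Jund 1.45-fold and Nr4a1 1.93-fold, whereas Arc, a regulator of AMPA receptors, fell to 0.553-fold. Btg2 was the 1 immediate early gene called without ZT8 replicate 2. None of the 4 glucocorticoid genes was, whereas Arrdc2, another gene of that list, passed there (0.74, adjusted p = 0.0484) but not with all libraries (0.45 ± 0.23, adjusted p = 0.198).

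Antioxidant enzyme genes were called higher in 7 (29.2%) and lower in 3 (12.5%) of 24, with a median of 0.16. Txn1, encoding thioredoxin, rose 1.74-fold, Gpx4, which reduces lipid peroxides, 1.61-fold, and the peroxiredoxin genes Prdx1 and Prdx2 1.44-fold each, whereas Cat, encoding catalase, fell from 75.4 ± 4.87 to 43.7 ± 11.2 CPM. Txn1, Gpx4, Prdx1 and Prdx2 were not called when any 1 of ZT0 replicate 1, ZT8 replicate 2 and ZT8 replicate 3 was left out (adjusted p from 0.0508 to 0.128), and Cat was not called without ZT0 replicate 1 or ZT8 replicate 2. Genes of the lysosome were called higher in 6 (17.6%) and lower in 7 (20.6%) of 34, beside 8.95% and 9.02% of all genes tested. The increases included subunits of the proton pump, with Atp6v1g1 rising 2.03-fold and Atp6v0b 1.53-fold, and the decreases included the protease Ctsa (113 ± 9 to 64.4 ± 16.9 CPM). Ctsa was called under the same 3 omissions, Atp6v0b under none of them, and Atp6v1g1 was lost without ZT8 replicate 2. Of 24 genes of cholesterol synthesis and uptake, 2 rose and 2 fell (8.33% each, below the share of all genes tested). Stard4, a sterol carrier, rose from 51.2 ± 5.86 to 93 ± 26.5 CPM, and the sterol enzymes Tm7sf2 and Nsdhl fell to 0.344-fold and 0.479-fold, and none of these 3 was called without ZT8 replicate 2. Of 11 noncoding RNAs, 2 rose (18.2%, beside 8.95% of all genes tested) and none fell. Rian, from the imprinted Dlk1-Dio3 locus (chr12:109603945-109661716), gave 180, 177 and 181 CPM at ZT0 and 275, 330 and 315 CPM at ZT8, and its log2 change of 0.77 ± 0.10 had the lowest p of all genes tested (adjusted p = 0.00406). Gas5, a host of small nucleolar RNAs, rose 1.96-fold and was not called without ZT0 replicate 1 or ZT8 replicate 2. The part of RNA outside tagged ribosomes in the rise of these 2 noncoding RNAs was not tested.

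Across all genes, the direction of the call went with coding length (the coding length of the longest coding transcript in GENCODE M21). The median was 792 bases for the 1289 genes called higher that had a value, 1593 for 1347 called lower and 1467 for 10932 not called. Of 242 genes of up to 300 bases, 38.4% were called higher and 1.65% lower, and of 5009 genes of 1200 to 2400 bases 5.29% and 12%. Without the ribosomal protein and oxidative phosphorylation lists, the medians were 867 and 1617 bases. Over 8890 genes with a mean log2 CPM above 3, the Spearman correlation between coding length and log2 change was -0.27, which describes these libraries since genes are not replicates. The length of the 3′ untranslated region gave -0.01, the number of exons -0.25 and GC content -0.09. Removing the trend with coding length and GC content from each library, an alternative added after the data were seen, left 3086 genes called, 2391 of them among the 2798.

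The same order was seen inside several lists. The Spearman correlation between coding length and log2 change was -0.63 over 79 cytosolic ribosomal protein genes, -0.58 over 77 oxidative phosphorylation genes, -0.69 over 76 splicing factor genes and -0.42 over 78 mitochondrial ribosomal protein genes. The median coding length was 360 bases for oxidative phosphorylation genes called higher and 1065 for those called lower, and 669 and 1551 bases for splicing factors. Rpl3, the ribosomal protein gene that fell, has 1209 bases. Potassium channels (0.18), the unfolded protein response (0.20) and motor genes (0.01) did not show it. With the length and GC trend removed, 35 ribosomal protein genes were called higher and 3 lower, and 32 oxidative phosphorylation genes higher and 16 lower. The list medians were then 0.31 for cytosolic ribosomal proteins (0.58 before), 0.24 for oxidative phosphorylation (0.49 before) and 0.12 for mitochondrial ribosomal proteins (0.27 before).

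Coding length also separated libraries within a time point. The Spearman correlation between coding length and a library's level relative to the 18 was 0.30, 0.00 and 0.36 for the ZT0 libraries and -0.09, -0.21 and -0.22 for those of ZT8. At the other times it ranged from -0.28 in ZT4 replicate 3 to 0.44 in ZT16 replicate 2, and at ZT16 it was 0.24, 0.44 and -0.21. The first principal component also split libraries within a time point, with those of ZT16 at -20.1, -27.9 and 2.81. Across 9214 genes, the weight of a gene on it correlated with the log2 change at 0.97 (Pearson). The ZT0 and ZT8 libraries were among the 18 that set this component. The part of library composition in the difference between ZT8 and ZT0 was not tested. Genes called higher also stood higher in the immunoprecipitates than in the pooled input. Over the 12 libraries of the other time points, the median log2 ratio to the input was 0.59 for genes called higher, -0.34 for genes called lower and -0.46 for the rest, with 1 input library and no replicate of it. The 3 classes also differed in level, with median log2 CPM over those 12 libraries of 6.03, 5.23 and 3.21 in the same order. The part of expression level in the ratios was not tested.

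**Figure D4:**
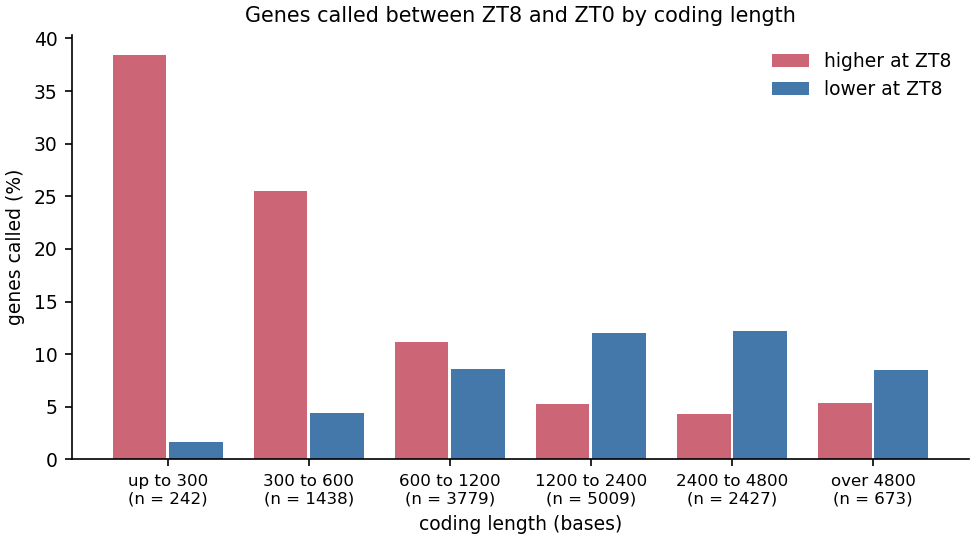
Share of genes called higher (red) and lower (blue) at ZT8 than at ZT0, in percent, by coding length in bases, with the number of tested genes in each class below the bars. The share called higher falls from 38.4% in the shortest class to 5.29% at 1200 to 2400 bases, and the share called lower rises from 1.65% to 12%.

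Ranked by size among called genes of at least 10 CPM whose groups did not overlap, the largest increase was in Gp1bb, encoding a platelet glycoprotein subunit (chr16:18620319-18622403), which transcripts of the neighbouring Sept5 can extend into, from 31.8, 48.4 and 29.4 CPM to 61.8, 180 and 134 CPM (3.45-fold). Polr2l, a small subunit shared by RNA polymerases, rose 2.87-fold, Srp54a of the signal recognition particle 2.82-fold and the stress-responsive Gadd45g 2.54-fold. Srp54a has near-identical copies, so its value and that of Gp1bb are uncertain. Gal, which encodes the neuropeptide galanin (chr19:3409915-3414544), gave 6.44, 8.06 and 9.05 CPM at ZT0 and 21, 25.3 and 18.4 CPM at ZT8, a change of 1.46 ± 0.26 (adjusted p = 0.00519) in which ZT8 replicate 1 lay between the others. Gal and Gadd45g were called without ZT8 replicate 2, and Gp1bb, Polr2l and Srp54a were not.

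The largest decreases, after Dync1li1, were in Lgals3bp, a secreted glycoprotein (20.9, 19.4 and 19.7 CPM at ZT0, 9.06, 2 and 1.97 CPM at ZT8), and in Suclg1, a subunit of succinyl-CoA ligase of the citric acid cycle (chr6:73248505-73276907), with 118, 91.7 and 106 CPM at ZT0 and 50.6, 9.92 and 15.4 CPM at ZT8. Serpina3n, a protease inhibitor, fell to 0.244-fold, the sterol transporter Abcg4 to 0.26-fold, and Cdc37, a co-chaperone of HSP90, from 204, 162 and 171 CPM to 90, 23.9 and 38.5 CPM. In all of these, ZT8 replicate 1 lay between the ZT0 libraries and the other ZT8 libraries. By p, the leading decreases were Bud23, Surf2, Pank4, Sec13 and Ilk, which fell to between 0.344-fold and 0.578-fold, and the leading increases included Rian, Socs5, Ccdc85c and Lmln, which rose between 1.55-fold and 1.74-fold.

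The level of a list in each library showed how far the groups were apart. Members of the cytosolic ribosomal protein list averaged -0.28, -0.02 and -0.28 at ZT0 on the log2 scale relative to the mean of 18 libraries and 0.09, 0.51 and 0.30 at ZT8. The oxidative phosphorylation list gave -0.26, -0.02 and -0.24 at ZT0 and 0.01, 0.36 and 0.25 at ZT8. In both lists every ZT8 library was above every ZT0 library, with ZT0 replicate 2 and ZT8 replicate 1 closest to each other. The acetylcholine and motor neuron list ran the other way, at 0.21, 0.10 and 0.06 against -0.07, -0.35 and -0.22, and so did the unfolded protein response list, at 0.11, 0.16 and 0.09 against -0.02, -0.23 and -0.18. The mitochondrially encoded genes spread most within a group, at 0.45, -0.06 and 0.65 at ZT0 and -0.13, -0.98 and -0.15 at ZT8. The clock list, whose members moved in both directions, differed by 0.04 in its mean.

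**Figure D5:**
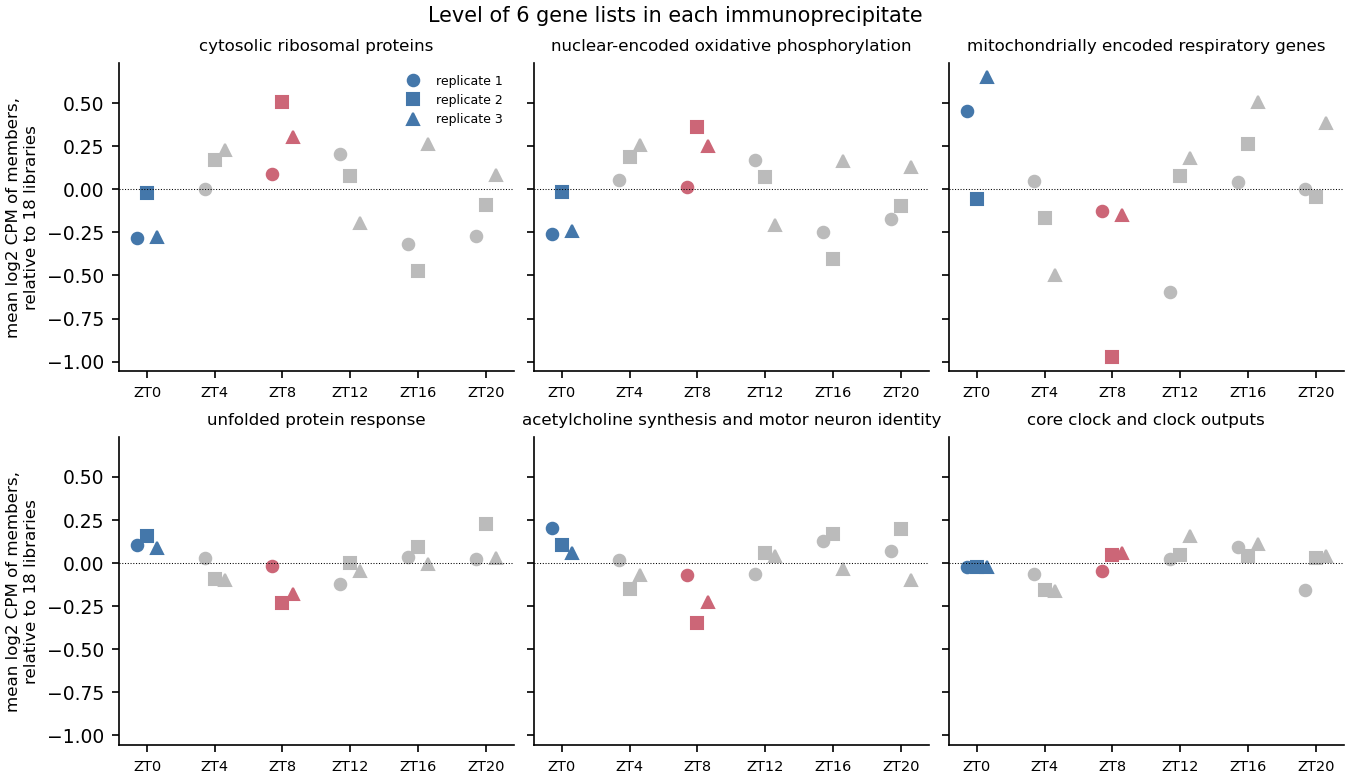
Mean log2 CPM of the tested members of 6 gene lists in each of the 18 immunoprecipitates, relative to their mean over the 18, with ZT0 in blue, ZT8 in red, the other times in grey and the replicate number as the symbol. ZT8 lies above ZT0 for the ribosomal and oxidative phosphorylation lists and below it for the mitochondrially encoded, unfolded protein response and acetylcholine lists, and the 3 ZT16 libraries lie on both sides of 0 for the ribosomal and oxidative phosphorylation lists.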

How the data were processed

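According to the study's methods, mRNA was purified by hemagglutinin immunoprecipitation from whole spinal cord, with all samples handled on the same day, and made into stranded libraries from 100 ng of RNA. The authors aligned paired-end reads with STAR 2.7.5 to mm10 and quantified them with RSEM. The deposited values are expected counts per gene (estimated counts), not normalized, and 2.17% to 2.99% of the values of the 6 libraries were not whole. RSEM divides reads that fit several genes by a model, which makes genes with near-identical copies less certain.

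Expected counts were rounded. The filterByExpr function, given the 6 time points, kept 15572 genes out of 25601 that had any count. All 18 immunoprecipitates were scaled by TMM and entered edgeR 4.0.16 (R 4.3.3) for a quasi-likelihood F-test of the contrast ZT8 minus ZT0 and Benjamini-Hochberg adjustment over all genes tested at 0.05. SE is the log2 change divided by the square root of F, and n is 3 animals per group. CPM is relative to the TMM-scaled library size, and log2 CPM carried a prior count of 2. The common coefficient of variation between animals was 19.2%, and replicates of a group differed by far more than counting noise. Levels are not comparable between genes, since CPM is not per length. Replicates were separate animals.

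The comparison and the gene lists were chosen with earlier results of these data known. Genes named are every tested clock gene, up to 5 of lowest p from each other list, and, among called genes with a mean of at least 10 CPM and non-overlapping groups (predicted genes and pseudogenes left out), the 8 largest changes and 5 lowest p in each direction. Some named members are not reported here. Positions were taken from RefSeq (GRCm38.p6, the mm10 assembly), counted from 1 and matched by symbol for 15436 of the tested genes. Transcript features came from GENCODE M21 for 14729. Promoters came from RefSeq. Alternatives were DESeq2 1.42.0, limma 3.58.1, other scalings, filters and sample sets, a replicate block, an oligodendrocyte score and leaving out each library. The test was also run on simulated counts. Genes varied independently of one another in them, so that run does not cover the composition shared across genes seen here.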

Additional observations from a re-analysis of the deposited data

How the results depend on the processing

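The number of genes called was 2798. It was 2744 to 2830 under other scalings, 2589 with at least 10 counts in total and 3091 with at least 1 count. It was 2003 with the 6 libraries alone, 3374 with DESeq2, 4135 with limma voom and 2967 with the oligodendrocyte score as a covariate. All were within 1.5 times of the reported count. Limma voom was run with library quality weights. These were 0.466, 0.439 and 1.31 for ZT8 replicates 1, 2 and 3, the first 2 being the lowest of the 18. At an adjusted p of 0.01 the number of genes called was 747, 348 higher and 399 lower. Leaving out 1 of the 18 immunoprecipitates gave 274 to 4010 genes called, 86 to 1744 higher and 188 to 2266 lower, the low end without ZT8 replicate 2 and the high end without ZT8 replicate 1. Over the same omissions the clock list held 0 to 7 called members, ribosomal proteins 1 to 52 higher, oxidative phosphorylation 0 to 46 higher, the mitochondrially encoded genes 4 to 7 lower, the unfolded protein response 4 to 10 lower and the acetylcholine list 1 to 11 lower. Limma voom called 8 clock genes in place of 5.

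With ZT8 replicates 2 and 3 both left out, a setting chosen after the data were seen, the lone ZT8 library was assumed to vary like the other groups. Then 1 gene passed in edgeR (0 higher and 1 lower, with 1332 genes at an unadjusted p under 0.05), and 0 members of each of the 6 lists above were called. Of 135 called genes that the naming rule selected, those not reported here left out, the omission of ZT8 replicate 2 left 46, that of ZT0 replicate 1 left 85, that of ZT8 replicate 3 left 105 and that of ZT0 replicate 3 left 108, and 125 were called with the 6 libraries alone. None of the 135 changed direction under any alternative run, which separated groups leave little room for. Among genes that were not called, Npas2 gave 0.023 with limma voom, 0.13 with the length and GC trend removed and 0.016 with the oligodendrocyte score, and Nr1d1 gave 0.091 with the trend removed, all against a negative reported value. Without ZT8 replicates 2 and 3, Nr1d1 gave 0.36, Clock -0.024, Chrnb2 0.012 and Chrna4 0.0037. Leaving out 1 library, Nr1d1 ranged from -0.28 to 0.14 and Npas2 from -0.36 to 0.39. The cause of these shifts was not tested.

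The labels number the replicates 1 to 3 at each time. Deviations from the group mean correlated at 0.39, 0.28 and -0.05 between ZT0 and ZT8 libraries of the same number, and at -0.38 to 0.08 between those of different numbers. Not every sample correlated best with its own number, and the labels tie the numbers to no shared litter or day, so the samples were taken to share a number only. A fit with the replicate number as a block called 2756 genes, 2624 of them among the 2798.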
